A study of Mus musculus with 21 samples.

Results

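The cadherins and Kirrel proteins described here are cell adhesion molecules encoded by 10 of the 24454 genes in the expression table of mouse embryonic fibroblasts (MEFs). The members were taken by gene symbol: Cdh2, Cdh3, Cdh4, Cdh15, Cdh6, Cdh10, Cdh11 and Cdh13 of the cadherin family, and Kirrel and Kirrel3 of the nephrin-related immunoglobulin family. No reason is stated for the choice of members. Cdh13 and Kirrel3 were taken to have been chosen for their low level after Cre in RTEL1 CA cells, so their values in that comparison are described without a test. The other members were picked with earlier results of these data known, and their p-values therefore only set the size of a difference against the spread between libraries.

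RTEL1 is a helicase that dismantles telomeric t-loops and unwinds G-quadruplex (G4) DNA, and the study asked how its loss, or stabilization of G4 structures, alters transcription. Polyadenylated RNA was sequenced from 7 groups of 3 libraries, called biological replicates 1 to 3, all harvested 96 hours after adenoviral infection. Whether the replicates were separate cultures or animals was not given, so the p-values measure the spread between these libraries, which may be technical. Rtel1f/f MEFs, in which both Rtel1 alleles carry loxP sites, received a GFP adenovirus (+GFP), a Cre-GFP adenovirus that deletes the floxed gene (+Cre), or the GFP adenovirus with 10 µM TMPyP4, a porphyrin that binds G4 DNA, for the last 48 hours (+GFP +TMPyP4). Rtel1f/f MEFs transduced with the RTEL1 C1252A/C1255A mutant from a retroviral vector, called RTEL1 CA cells, received the GFP or the Cre virus. This mutant is defective in t-loop unwinding, and the RTEL1 CA +GFP cells retained their endogenous floxed alleles. A separate line, Trf1f/f MEFs, received the GFP or the Cre virus, the latter deleting Terf1, which encodes the shelterin protein TRF1.

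Cadherins bind calcium and pair with cadherins on neighbouring cells, and the classical types anchor to the actin cytoskeleton through catenins. Cdh2 (N-cadherin) and Cdh11 (OB-cadherin) are the cadherins best known from mesenchymal cells, whereas Cdh13 (T-cadherin) has no cytoplasmic tail and is held in the membrane by a lipid anchor. Kirrel and Kirrel3 bind nephrin, and the family is known from the slit diaphragm of the kidney and from the sorting of sensory axons.

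Levels are given as CPM, counts scaled to a common library size after trimmed-mean (TMM) scaling, and compared between genes only as TPM, the same idea corrected for transcript length. Library totals ranged from 32069888 to 51938593 counts. SE stands for the standard error of a log2 fold change. A gene was called when edgeR's quasi-likelihood test gave a Benjamini-Hochberg adjusted p of at most 0.01 over the 13719 genes tested. Rtel1 fell from 61.8 ± 3.83 to 29.5 ± 2.56 CPM (SD, n = 3) with Cre in Rtel1f/f cells, and Terf1 from 29.3 ± 1.21 to 0.0608 ± 0.0434 CPM (SD, n = 3) in Trf1f/f cells. RTEL1 CA cells, in which endogenous and any introduced Rtel1 transcripts were not counted apart, had 332 ± 4.80 CPM of Rtel1 with GFP and 265 ± 16.3 CPM with Cre (SD, n = 3). The 6 Trf1f/f libraries stood apart from the other 15 along the first principal component, which held 79.9% of the variance. The 10 fibroblast markers, among them Col1a1, Col1a2, Vim and Fn1, summed to at least 8159 CPM in every library, although Thy1 had at most 3 counts in Rtel1f/f +GFP libraries. Skeletal myogenic, epithelial and endothelial markers each summed to at most 4.45 CPM, and haematopoietic markers to at most 13.2 CPM.

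Of the 10 members, 9 passed the filter on low counts. Cdh2, Cdh11, Cdh13, Cdh3, Kirrel and Kirrel3 were above 3 counts in every library. Cdh4, Cdh10 and Cdh15 passed only through the Trf1f/f libraries, with at most 3 counts in each of the other 15 libraries, and Cdh6 did not pass, with at most 7 counts in any library.

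**Figure D1:**
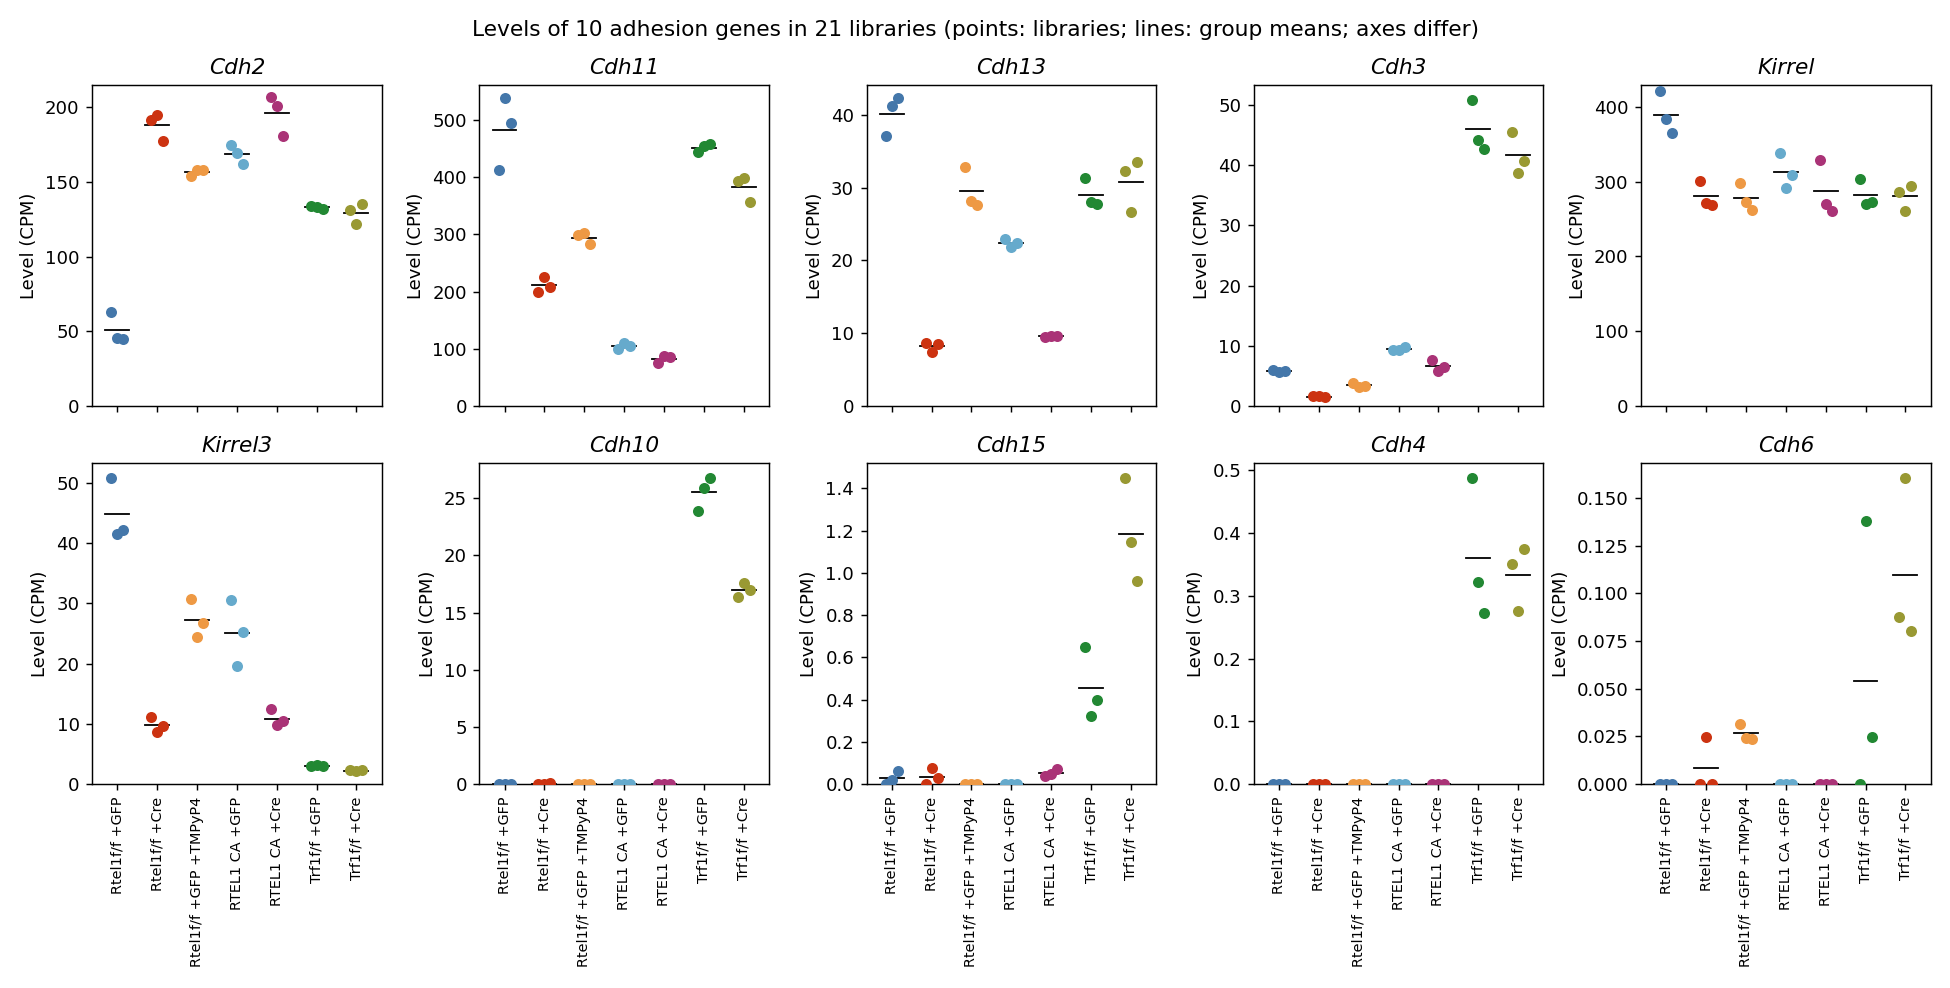
Level of each gene in CPM (vertical axes, linear, starting at 0 and differing between panels) in the 7 groups (horizontal axis), with 1 point per library and a line at the group mean of 3. Cdh2 sat lowest in Rtel1f/f +GFP, Cdh13 and Kirrel3 were lower with Cre in both Rtel1f/f and RTEL1 CA cells, and Cdh10, Cdh15 and Cdh4 were seen mainly in the Trf1f/f line.

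The cadherin make-up of Rtel1f/f cells shifted from Cdh11 towards Cdh2 after Rtel1 deletion. Cdh2 rose 3.67-fold, while Cdh11, Cdh13, Cdh3, Kirrel and Kirrel3 fell by between 1.39-fold (Kirrel) and 4.89-fold (Cdh13). Thus 1 member was called higher and 5 lower in +Cre against +GFP, in a comparison that called 43.0% of all genes tested, 22.0% higher and 21% lower. The median log2 fold change of the 6 members was -1.54, beside -0.03 over all genes tested. All these differences rest on the same 3 +GFP libraries. Mean Cdh2 was 51.2 CPM there, beside 169 CPM in RTEL1 CA +GFP and 133 CPM in Trf1f/f +GFP, neither of which received Cre or TMPyP4. Whether the Rtel1f/f +GFP libraries were themselves unlike was not tested.

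Cdh2, the N-cadherin gene, lies on chromosome 18 (16588877 to 16809246, GRCm38.p6) and had the opposite course to the other 5. Its levels were 63.0, 45.4 and 45.2 CPM in the Rtel1f/f +GFP libraries and 192, 195 and 178 CPM in the +Cre libraries. All +Cre libraries lay above all +GFP libraries, and replicate 1 was the highest of the +GFP group. The log2 fold change was 1.88 (SE 0.0991, adjusted p = 8.9e-11 in edgeR).

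Cdh11, a type II cadherin of mesenchymal and bone-forming cells (chromosome 8, 102632095 to 102785493), had the highest TPM of the 8 cadherins followed here in Rtel1f/f +GFP cells, with 195 ± 29.8 TPM beside 21.9 ± 4.18 TPM for Cdh2 (SD, n = 3). It fell from 413, 538 and 495 CPM to 200, 226 and 207 CPM with Cre. The groups did not overlap, and the lowest +GFP library was again replicate 1. The log2 fold change was -1.19 (SE 0.0857, adjusted p = 4.1e-09 in edgeR).

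Cdh13, whose product T-cadherin also binds adiponectin and low-density lipoprotein, spans 1184.91 kb of chromosome 8 (118140017 to 119324929). It stood at 37.0, 41.1 and 42.3 CPM under GFP and at 8.65, 7.44 and 8.54 CPM with Cre. This was the lowest log2 fold change of the members, -2.29 (SE 0.0974, adjusted p = 9.5e-12 in edgeR), and the groups were far apart.

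Cdh3, the P-cadherin of placenta and basal epithelium (chromosome 8, 106510852 to 106556911), was scarce in these cells. It had 6.05, 5.69 and 5.83 CPM under GFP against 1.72, 1.59 and 1.42 CPM under Cre, without overlap. The log2 fold change was -1.89 (SE 0.117, adjusted p = 6.4e-10 in edgeR).

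Kirrel3 (chromosome 9, 34485853 to 35040807), known for guiding sensory axons into glomeruli, had 50.8, 41.5 and 42.1 CPM with GFP. The +Cre libraries had 11.2, 8.59 and 9.72 CPM, all below the lowest +GFP library. The log2 fold change was -2.19 (SE 0.145, adjusted p = 1.5e-09 in edgeR).

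Kirrel, the broadly expressed gene of the family whose product interacts with nephrin in podocytes, was far more abundant than Kirrel3 per length, with 109 ± 8.65 TPM beside 25.7 ± 2.82 TPM (SD, n = 3) in Rtel1f/f +GFP cells. It moved least. Its levels were 421, 383 and 364 CPM under GFP against 300, 272 and 268 CPM under Cre, so that the groups still did not overlap. The log2 fold change was -0.48 (SE 0.0908, adjusted p = 2.4e-04 in edgeR). Replicate 1 was the highest Kirrel library in 6 of the 7 groups.

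Because the study concerned G4 DNA, promoter windows were read from RefSeq (GRCm38.p6) for the 4 members that had one: Kirrel, Cdh15, Cdh10 and Cdh6. Each window holds 250 bases before and 50 bases from an annotated start site. That site is the outer end of the gene for Cdh15, and lies 240 bases inside it for Kirrel, 1460 for Cdh10 and 2732 for Cdh6. A G4 pattern was defined as 4 runs of GGG separated by loops of 1 to 7 bases, on either strand. The Kirrel window is shown because Kirrel fell under both treatments of Rtel1f/f cells. Cdh11, Cdh13, Cdh3 and Kirrel3 also fell under both but had no window, so their promoters were not read. The Cdh10 and Cdh15 windows are shown because those genes were counted almost wholly in the Trf1f/f line. Letters in capitals mark the G4 pattern, which reads as runs of C where it lies on the opposite strand, and each window is printed 5′ to 3′ on the strand of its gene.
Kirrel, chr3:87174488-87174787, minus strand: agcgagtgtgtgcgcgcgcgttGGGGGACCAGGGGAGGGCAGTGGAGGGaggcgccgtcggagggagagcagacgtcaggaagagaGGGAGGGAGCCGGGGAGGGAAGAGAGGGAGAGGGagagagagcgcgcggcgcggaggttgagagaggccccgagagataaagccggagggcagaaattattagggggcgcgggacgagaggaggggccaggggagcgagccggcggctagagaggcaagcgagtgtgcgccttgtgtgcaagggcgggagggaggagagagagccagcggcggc
Cdh10, chr15:18820079-18820378, plus strand: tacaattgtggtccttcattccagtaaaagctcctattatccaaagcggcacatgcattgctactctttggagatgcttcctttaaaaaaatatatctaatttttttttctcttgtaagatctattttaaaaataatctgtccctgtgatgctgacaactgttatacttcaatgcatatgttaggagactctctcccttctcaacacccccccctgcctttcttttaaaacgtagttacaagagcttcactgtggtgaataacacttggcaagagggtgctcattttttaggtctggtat
Cdh15, chr8:122848124-122848423, plus strand: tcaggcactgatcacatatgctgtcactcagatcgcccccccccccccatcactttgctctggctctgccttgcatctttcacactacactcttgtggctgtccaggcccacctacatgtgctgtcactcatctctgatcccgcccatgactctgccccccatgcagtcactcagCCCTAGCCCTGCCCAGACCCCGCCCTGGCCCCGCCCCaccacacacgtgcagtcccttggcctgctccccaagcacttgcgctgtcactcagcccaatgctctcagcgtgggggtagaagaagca

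The Kirrel window held 2 sense-strand matches, at -228 to -202 and -164 to -131 from the start site, and was 69.3% G or C. Cdh15 had 1 match on the antisense strand, at -75 to -39, and Cdh6, whose window is not printed, had 1 sense match. Cdh10 had no match in its window, which was 37.7% G or C. Over all 32851 windows of the same length, 18.6% held the pattern on either strand and the median G or C content was 52.7%. The E-box CAGGTG, bound by Snail and Zeb repressors of cadherin genes, was searched on both strands, occurred in none of the 4 windows and was in 20.2% of all windows.

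Gene length is given as a description, because no reason is stated for the choice of members and length may have entered it. Of the 10 members, the untested Cdh6 included, 7 spanned at least 100 kb in GRCm38.p6. Of the 13135 tested genes with a known span, 13.4% did. The median span was 175 kb for the members and 23.3 kb for the genes tested, and the shortest member, Cdh15, spanned 19.0 kb.

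With TMPyP4, Cdh2 rose and Cdh11, Cdh13, Cdh3, Kirrel and Kirrel3 fell, in a comparison that uses the same +GFP libraries. Thus 1 member was called higher and 5 lower, with 30.0% of all genes called, 16.6% higher and 13.4% lower. The median over the 6 members was -0.60, beside -0.01 over all genes tested, both as log2 fold changes.

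Cdh2 had 154, 158 and 158 CPM in the TMPyP4 libraries, all above the 3 +GFP libraries. Its log2 fold change was 1.62 (SE 0.0984, adjusted p = 3.1e-09 in edgeR). Cdh11 had 298, 302 and 283 CPM, between the +GFP and the +Cre libraries, and a log2 fold change of -0.71 (SE 0.0850, adjusted p = 4.7e-06 in edgeR). An intermediate level was also seen for Cdh3, the P-cadherin gene, with 3.77, 3.11 and 3.37 CPM and a log2 fold change of -0.78 (SE 0.109, adjusted p = 2.1e-05 in edgeR).

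T-cadherin and Kirrel3 transcripts fell far less with TMPyP4 than with Cre. Cdh13 had 32.8, 28.2 and 27.6 CPM, just under the lowest +GFP library at 37.0 CPM, and a log2 fold change of -0.44 (SE 0.0916, adjusted p = 8.1e-04 in edgeR). Kirrel3 had 30.7, 24.4 and 26.8 CPM and a log2 fold change of -0.72 (SE 0.138, adjusted p = 4.6e-04 in edgeR). The TMPyP4 libraries of Kirrel were at 298, 272 and 263 CPM, with a log2 fold change of -0.49 (SE 0.0908, adjusted p = 3.3e-04 in edgeR).

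Set directly against each other, +Cre cells were lower than +GFP +TMPyP4 cells for 4 members, while 15.2% of all genes were called, 6.13% higher and 9.09% lower. Cdh13 showed the widest gap, with a log2 difference of -1.85 (SE 0.0966, adjusted p = 3.0e-10 in edgeR). Kirrel3 differed by -1.47 (SE 0.143), Cdh3 by -1.11 (SE 0.121) and Cdh11 by -0.48 (SE 0.0848) on the log2 scale, with adjusted p from 7.4e-07 to 3.9e-04 by the same edgeR test. The Cdh11 call was lost without replicate 3 of the +Cre group (adjusted p = 0.0119). Cdh2 differed by 0.26 (SE 0.0957, adjusted p = 0.054 by edgeR), not past the threshold although the libraries did not overlap. The Kirrel difference was 0.01 (SE 0.0907, adjusted p = 0.95 by edgeR), and its groups overlapped.

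**Figure D2:**
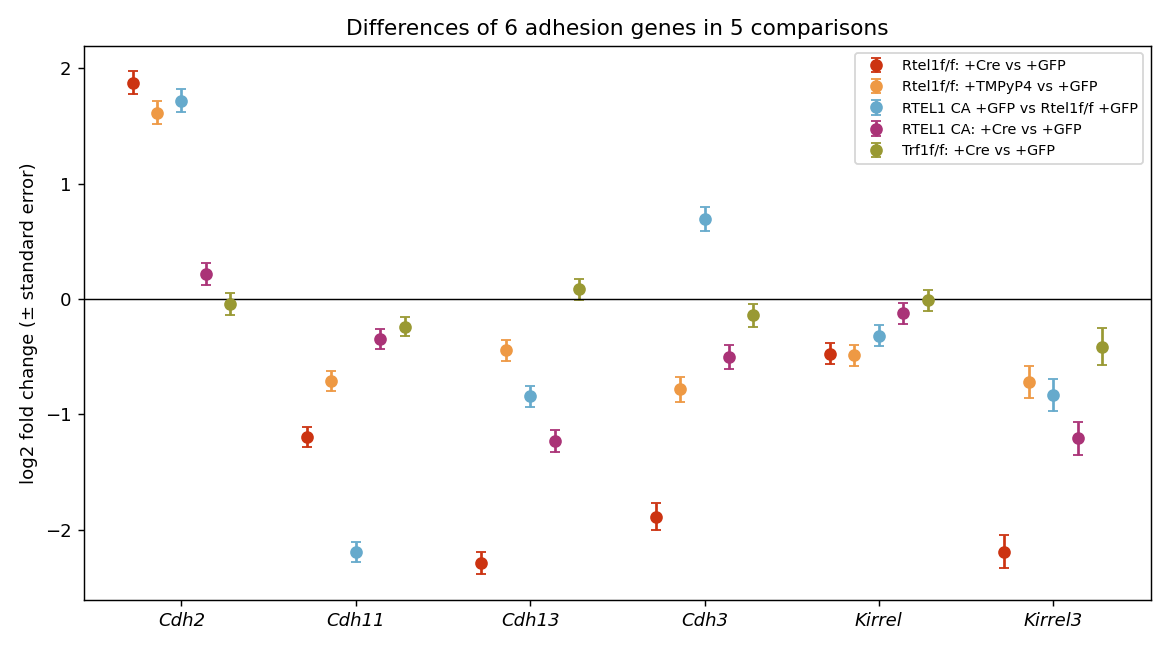
Log2 fold change (vertical axis) of 6 genes (horizontal axis) in 5 comparisons, each estimated from 3 libraries against 3; points are estimates and bars ± 1 standard error. Cdh2 was higher by 1.62 to 1.88 in 3 of the 5 comparisons, all against Rtel1f/f +GFP, and within 0.22 of 0 for the added Cre in RTEL1 CA and Trf1f/f cells.

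After deletion of endogenous Rtel1 in RTEL1 CA cells, Cdh13 and Kirrel3 had lower levels, which are given as a description because the pair was taken to be chosen on them. Of the other 4 members above 3 counts in every library, edgeR called 0, where it called 1.09% of all genes, 0.525% higher and 0.569% lower. That fit did not pair the libraries. With replicate numbers as a block, which pairs them, edgeR called 1 of the 4 (Cdh3), among 203 of 13719 genes. DESeq2 called 1 (Cdh3), and 3 had an unadjusted p under 0.05 in edgeR. The shares of all genes that belong beside these last counts are not given, so they are not set against the 1.09%. The median of these 4 members was -0.24, beside 0.00 over all genes tested, as log2 fold changes.

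Cdh13 had 23.0, 21.8 and 22.4 CPM in RTEL1 CA +GFP libraries and 9.45, 9.57 and 9.67 CPM in RTEL1 CA +Cre libraries. The 2.34-fold lower level with Cre was well separated. Kirrel3 had 30.5, 19.6 and 25.2 CPM under GFP against 12.4, 9.84 and 10.4 CPM under Cre, a 2.31-fold lower level without overlap. When only these 6 libraries were fitted, edgeR called 0 of 12618 genes, with 1256 at an unadjusted p under 0.05.

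The remaining 4 members had smaller differences. Cdh3 had 9.35, 9.28 and 9.80 CPM under GFP against 7.66, 5.87 and 6.48 CPM under Cre. The groups did not overlap, and the log2 fold change of -0.50 (SE 0.103, adjusted p = 0.0105 by edgeR) just missed the threshold. It passed in 5 of 12 alternative settings. These were DESeq2 (adjusted p = 6.2e-04), and in edgeR DESeq2 size factors (0.0068), no filter on low counts (0.0099), replicate numbers as a block (0.0072) and leaving out replicate 1 of the +Cre group (log2 fold change -0.62, adjusted p = 0.0031). In the other 7 the adjusted p reached 0.20. Cdh11 had 100.1, 111 and 105 CPM under GFP against 75.1, 88.1 and 85.3 CPM under Cre, also without overlap, and a log2 fold change of -0.35 (SE 0.0851, adjusted p = 0.0316 by edgeR). For Cdh2 the log2 fold change was 0.22 (SE 0.0957, adjusted p = 0.29 by edgeR), with 175, 169 and 162 CPM under GFP against 207, 201 and 181 CPM under Cre. For Kirrel it was -0.12 (SE 0.0906, adjusted p = 0.65 by edgeR), with overlapping groups.

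The change with Cre differed between Rtel1f/f and RTEL1 CA cells for Cdh2, Cdh3 and Cdh11 beyond the spread of both lines, where 25.1% of all genes were called for such a difference, 12.8% higher and 12.3% lower. Cdh2 rose more in Rtel1f/f cells by 1.66 on the log2 scale (SE 0.136, adjusted p = 1.9e-07 from edgeR's interaction term). The difference was -1.38 (SE 0.155, adjusted p = 3.5e-06) for Cdh3 and -0.85 (SE 0.120, adjusted p = 3.6e-05) for Cdh11 by the same edgeR test. For Cdh13 and Kirrel3, taken to be chosen on the RTEL1 CA contrast, the differences of -1.06 and -0.98 are given as descriptions. Kirrel differed by -0.35 (SE 0.128, adjusted p = 0.0383 by edgeR).

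Before any Cre, RTEL1 CA +GFP cells already differed from Rtel1f/f +GFP cells in all 6 members. This comparison shares the +GFP libraries of the Rtel1f/f comparisons. In it 2 members were higher and 4 lower, while 44.7% of all genes were called, 22.6% higher and 22.1% lower. The 4 include Cdh13 and Kirrel3, whose values here are descriptions. Cdh2 was 3.29-fold higher (log2 difference 1.72, SE 0.0986, adjusted p = 2.9e-10 by edgeR). Cdh11 was 4.58-fold lower (log2 difference -2.19, SE 0.0884, adjusted p = 4.1e-12 by edgeR). The RTEL1 CA cells thus started with more Cdh2 than Cdh11 per length, at 60.7 ± 3.39 TPM beside 35.8 ± 1.48 TPM (SD, n = 3).

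Cdh3 was higher in RTEL1 CA cells, with a log2 difference of 0.69 (SE 0.103, adjusted p = 1.9e-05 by edgeR). Cdh13 and Kirrel3 differed by -0.84 and -0.83 on the log2 scale (SEs 0.0922 and 0.138). These values are descriptions, because the comparison shares its RTEL1 CA +GFP libraries with the one these genes were taken to be chosen on. The Kirrel difference of -0.32 (SE 0.0907, adjusted p = 0.0064 by edgeR) lost its call in 6 of 12 alternative settings, among them each fit without Rtel1f/f +GFP replicate 1 or 2 or RTEL1 CA +GFP replicate 2 or 3 (adjusted p up to 0.0384). The retroviral vector and the mutant protein cannot be told apart in this comparison, because the labels give no empty-vector group.

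In Trf1f/f cells the 9 members tested did not pass the threshold with Cre. At the adjusted threshold edgeR called 0 of 9, where it called 3.42% of all genes, 2.65% higher and 0.765% lower. DESeq2 called 1 (Cdh10), where it called 639 of 13928 genes. In edgeR 4 of the 9 had an unadjusted p under 0.05, a looser threshold for which the share of all genes is not given. Cdh10, a type II cadherin of the brain (chromosome 15, 18818869 to 19016206), had 23.9, 25.9 and 26.7 CPM under GFP against 16.3, 17.6 and 16.9 CPM under Cre. The groups did not overlap, and the log2 fold change was -0.59 (SE 0.166, adjusted p = 0.0400 by edgeR, with 1.7e-05 by DESeq2 and up to 0.16 over the alternative settings).

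Cdh15, the M-cadherin of skeletal muscle precursors (chromosome 8, 122848374 to 122867397), was higher with Cre in every library, at 28, 14 and 16 counts with GFP and 66, 50 and 36 counts with Cre. The log2 fold change was 1.38 (SE 0.348, adjusted p = 0.0293 by edgeR). Cdh4, the R-cadherin of retina and brain (chromosome 2, 179442423 to 179899377), had 21, 14 and 11 counts with GFP and 16, 12 and 14 with Cre, and these overlapped. The 6 skeletal myogenic markers summed to between 0.348 and 0.483 CPM with GFP and between 0.176 and 0.367 CPM with Cre. Myod1, Myf5 and Pax7 had 0 counts in every Trf1f/f library and Myog at most 1. The sums thus came almost wholly from Chrna1 and Pax3. The part of these markers in the Cdh15 values was not tested.

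The more abundant members had small differences with Cre in the Trf1f/f line. Cdh2 had 134, 133 and 132 CPM under GFP against 131, 122 and 135 CPM under Cre. Cdh13 had 31.4, 28.0 and 27.7 CPM under GFP against 32.3, 26.6 and 33.5 CPM under Cre, again overlapping. The log2 fold changes of Cdh2, Cdh13, Cdh3 and Kirrel lay between -0.14 and 0.09 with overlapping groups. Those of Cdh11 (-0.24, SE 0.0846, adjusted p = 0.12 by edgeR) and Kirrel3 (-0.41, SE 0.163, adjusted p = 0.17 by edgeR) came from groups that did not overlap.

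The change with Cre in Rtel1f/f cells differed from that in Trf1f/f cells for all 6 members, where 30.2% of all genes were called for such a difference, 15.8% higher and 14.5% lower. By edgeR's interaction term the log2 differences were 1.92 for Cdh2 and -2.38 for Cdh13 (SEs 0.137 and 0.133, adjusted p = 1.1e-08 and 9.1e-10). They were -1.78 for Kirrel3 and -1.75 for Cdh3 (SEs 0.216 and 0.152, adjusted p = 5.5e-06 and 1.3e-07 by the same test). The smaller differences were -0.95 for Cdh11 (SE 0.120, adjusted p = 7.7e-06) and -0.47 for Kirrel (SE 0.128, adjusted p = 0.0070), and the Kirrel call was lost in 9 of 18 alternative settings of the edgeR fit, 8 of which left out 1 library of either line (adjusted p up to 0.0202).

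The Trf1f/f line had a different adhesion profile from the start. Trf1f/f +GFP cells were compared with Rtel1f/f +GFP cells, again the same control libraries, and 54.9% of all genes were called, 30.3% higher and 24.5% lower. Of the 6 members measured in both lines, Cdh2 and Cdh3 were higher and Cdh13, Kirrel and Kirrel3 lower. Line and genotype cannot be told apart here.

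Cdh3 had 50.8, 44.2 and 42.8 CPM in Trf1f/f +GFP cells, 7.84-fold more than in Rtel1f/f +GFP cells (log2 difference 2.97, SE 0.107, adjusted p = 5.1e-14 by edgeR). Kirrel3 had 2.95, 3.10 and 2.95 CPM, 14.9-fold less (log2 difference -3.90, SE 0.160, adjusted p = 3.0e-13 by edgeR). The groups were far apart for both genes. Cdh2 differed by 1.38, Cdh13 by -0.47 and Kirrel by -0.46 on the log2 scale (SEs 0.0978, 0.0915 and 0.0908), while Cdh11 differed by -0.09 (SE 0.0845, adjusted p = 0.34 by edgeR) with overlapping groups.

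Cdh10 set the lines apart by counts alone, with 1031, 1126 and 1078 counts in Trf1f/f +GFP libraries against 0, 1 and 1 counts in Rtel1f/f +GFP libraries. The pooled counts per pooled TMM-scaled library size gave a ratio of 1829, with an exact 95% counting interval from 506 to 15106. Cdh15 had 58 counts over the Trf1f/f +GFP group and 4 over the Rtel1f/f +GFP group, a ratio of 16.4 on the same scale (exact 95% counting interval 6.07 to 62.2). Cdh4 had 46 counts against 0, and the exact 95% counting interval of its ratio began at 13.5. These intervals cover counting error only, and these 3 genes entered the test only because they were counted in the Trf1f/f line. Cdh6, the K-cadherin of kidney, had 0, 6 and 1 counts in Trf1f/f +GFP libraries and 0 in every Rtel1f/f +GFP library, too few for a comparison.

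Across the 7 groups the order of levels differed from gene to gene. Cdh2 was highest in RTEL1 CA +Cre and Rtel1f/f +Cre, whose libraries overlapped, and lowest in Rtel1f/f +GFP, apart from every other group. Cdh11 was highest in Rtel1f/f +GFP and Trf1f/f +GFP, which overlapped, and then stepped down without overlap through Trf1f/f +Cre, Rtel1f/f +GFP +TMPyP4, Rtel1f/f +Cre, RTEL1 CA +GFP and RTEL1 CA +Cre. Cdh13 was highest in Rtel1f/f +GFP and lowest in Rtel1f/f +Cre, next to RTEL1 CA +Cre, with no overlap between the last pair.

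The Kirrel genes had unlike orders below a shared maximum in Rtel1f/f +GFP. The 6 other groups of Kirrel formed a continuous run of overlapping neighbours from 313 ± 23.0 CPM to 278 ± 18.1 CPM (SD, n = 3). Kirrel3 fell in steps to its lowest level in Trf1f/f +Cre, 2.26 ± 0.115 CPM, and its neighbours overlapped only between TMPyP4 and RTEL1 CA +GFP cells and between RTEL1 CA +Cre and Rtel1f/f +Cre cells. Cdh3 neighbours overlapped between the 2 Trf1f/f groups and between RTEL1 CA +Cre and Rtel1f/f +GFP cells.

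The summed transcripts of the 8 cadherins differed between groups in size and make-up. In Rtel1f/f +GFP cells the sum was 241 ± 28.1 TPM, of which Cdh11 made up 80.6% ± 3.16 and Cdh2 9.25% ± 2.77 (SD, n = 3). After Cre the sum was 145 ± 13.9 TPM, with 49.8% ± 1.63 Cdh11 and 47.1% ± 1.47 Cdh2. With TMPyP4 it was 178 ± 9.52 TPM, with 58.4% ± 0.725 and 33.0% ± 1.00. The ratio of Cdh11 to Cdh2 TPM lay between 6.19 and 11.2 in the +GFP libraries, between 0.984 and 1.10 after Cre and between 1.69 and 1.82 with TMPyP4, so that no group overlapped another.

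RTEL1 CA cells held more Cdh2 than Cdh11 with either virus. The sum was 111 ± 3.50 TPM with GFP and 106 ± 7.19 TPM with Cre (SD, n = 3), and the Cdh11 to Cdh2 ratio lay between 0.540 and 0.617 with GFP and between 0.343 and 0.446 with Cre. In the Trf1f/f line the sum was 291 ± 9.58 TPM with GFP and 251 ± 7.97 TPM with Cre, with 61.6% ± 0.955 and 59.4% ± 2.41 Cdh11. Cdh10 made up 5.73% ± 0.332 of the sum with GFP and 4.32% ± 0.240 with Cre in that line. These shares are descriptions of the same values as the calls above and were not tested.

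**Figure D3:**
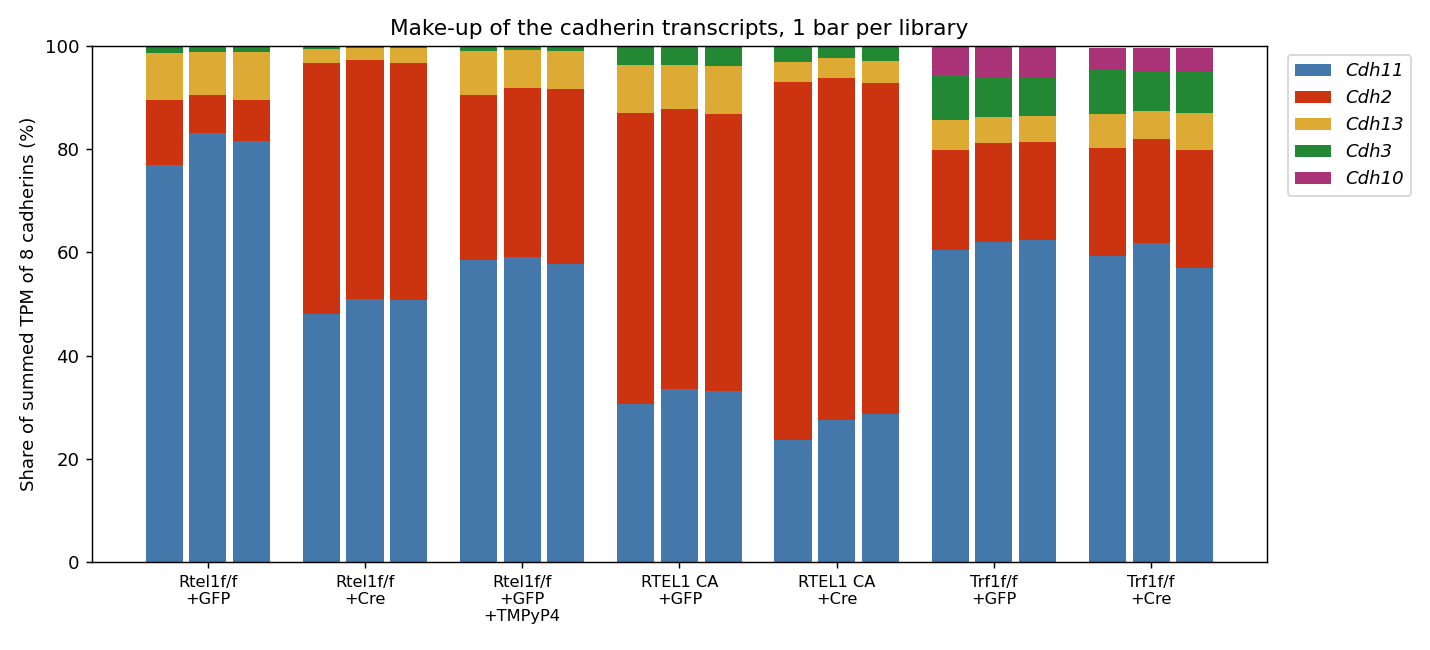
Share of the summed TPM of 8 cadherins (vertical axis, 0 to 100%) taken by each gene, with 1 bar per library and 3 libraries in each of the 7 groups. Cdh11 made up 77.0% to 83.1% in Rtel1f/f +GFP libraries and 48.0% to 50.9% after Cre, while Cdh15, Cdh4 and Cdh6 are too small to draw.

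Summed levels of cell type markers also differed between groups. The 10 fibroblast markers summed to between 20146 and 22270 CPM in Rtel1f/f +GFP, 8242 and 11193 CPM after Cre, 11200 and 14960 CPM with TMPyP4 and 9644 and 13538 CPM in RTEL1 CA +GFP. Cdh11 was lower in the same 3 groups than in Rtel1f/f +GFP. The sum did not stand for every marker. In each of the 3 groups 7 of the 10 were lower than in Rtel1f/f +GFP without overlap, the collagens, Fn1, Pdgfra and Pdgfrb. After Cre, S100a4 was higher, at 599 to 660 CPM against 227 to 297 CPM, as was Thy1 at 7 to 14 counts against 1 to 3, and Vim overlapped. The 6 smooth muscle markers summed to between 649 and 782 CPM in Rtel1f/f +GFP, 944 and 1121 CPM after Cre, 1739 and 1822 CPM with TMPyP4, 1317 and 1475 CPM in RTEL1 CA +GFP, 1155 and 1197 CPM in RTEL1 CA +Cre and 2908 and 3558 CPM in the Trf1f/f line. Acta2 and Tagln made up most of these sums. After Cre, Acta2, Tagln and Cnn1 were higher than in Rtel1f/f +GFP without overlap, whereas Lmod1, Des and Myh11 overlapped. For Acta2 the gap was narrow, with 489.8 to 538.6 CPM after Cre against 406.3 to 489.4 CPM. Like the smooth muscle sum, Cdh2 was lowest in Rtel1f/f +GFP, but the order of the other groups differed. The Trf1f/f line, with the highest smooth muscle sums, had 133 ± 0.995 CPM of Cdh2 with GFP and 129 ± 6.75 CPM with Cre (SD, n = 3), less than Rtel1f/f +Cre at 188 ± 9.09 CPM and RTEL1 CA +Cre at 196 ± 13.8 CPM (SD, n = 3). The 8 neural and glial markers summed to between 101 and 127 CPM in the Trf1f/f line, where Cdh10 and Cdh4 were counted, and to at most 45.6 CPM elsewhere. The part of these markers in the results was not tested, and in bulk RNA fewer cells of a type and less RNA per cell cannot be told apart.

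The closest companions of each member were taken as the 3 genes with the highest Pearson correlation of log2 CPM over the 21 libraries, among 11833 genes. Cdh2 was most alike Pkp2 (r = 0.986), a plakophilin of desmosomes, then Ankrd1 (r = 0.978) and Dctd (r = 0.971). Cdh11 was most alike Pcdhb17 and Olfml2b (r = 0.990 for both), Cdh13 most alike Cables1 (r = 0.971), and Cdh3 most alike 4930452B06Rik (r = 0.983). For the Kirrel family the most alike genes were Atp8b2 (r = 0.973) for Kirrel and E2f7 (r = 0.982) for Kirrel3. Cdh10 was most alike Tfap2b (r = 0.997), and Cdh4 most alike Hoxd12 (r = 0.996), a gene of limb patterning. Cdh15 was most alike Cd274 (r = 0.975), which encodes PD-L1. Cdh10, Cdh4 and Cdh15 had at most 3 counts in each library outside the Trf1f/f line. Any gene seen mainly in that line therefore gives a high r with them, and these values only restate the difference between the lines.

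Among the members themselves, Cdh2 correlated negatively with Cdh11 (r = -0.66), Cdh13 (r = -0.69) and Kirrel (r = -0.70) over the 21 libraries. Kirrel and Kirrel3 correlated at r = 0.58. All points share the 7 groups and 2 cell lines, so these values describe the group pattern and carry no test.

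Other adhesion genes around the members were followed in 7 lists, of which 75 genes were tested. After Rtel1 deletion 10 of the 75 were called higher and 20 lower, a share of 40.0% beside 43.0% of all genes tested, and with TMPyP4 11 were higher and 14 lower, 33.3% beside 30.0%. For all genes tested, 22.0% were called higher and 21% lower after Rtel1 deletion, and 16.6% higher and 13.4% lower with TMPyP4. Adding Cre to RTEL1 CA cells changed 2 of the 75, Cask and Tcf4, or 2.67% beside 1.09% of all genes. Adding Cre to Trf1f/f cells changed 4, or 5.33% beside 3.42%, Pcdh20 and Klf8 upwards and Fyn and Tcf4 downwards, calls that were lost in between 7 (Pcdh20) and 10 (Fyn) of the alternative settings. The lists are described by counts and medians and had no test of their own.

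Among 14 tested genes of the adherens junction, which link cadherins to actin, 2 were higher and 2 lower after Rtel1 deletion. That was 28.6% called beside 43.0% of all genes, with a median log2 fold change of -0.04 beside -0.03 for all genes. With TMPyP4 35.7% were called, beside 30.0% of all genes. The alpha-catenin gene Ctnna1 rose from 368 ± 17.4 to 478 ± 11.3 CPM (SD, n = 3), or 0.38 on the log2 scale (SE 0.0536, adjusted p = 1.2e-05 by edgeR). The beta-catenin gene Ctnnb1 fell by 0.19 on the log2 scale (SE 0.0545, adjusted p = 0.0056 by edgeR), a call lost in 7 of 12 alternative settings. Arvcf, a p120-catenin relative, had a log2 fold change of -1.36 (SE 0.351, adjusted p = 0.0035 by edgeR, lost in 2 of 12 alternative settings). With TMPyP4, 4 of the 14 were higher, among them Ctnnd2 (0.95, SE 0.208) and the afadin gene Mllt4 (0.40, SE 0.0867, lost in 2 of 12 alternative settings), and 1 was lower, Ctnnb1 (-0.21, SE 0.0545, lost in 8 of 12 alternative settings), as log2 fold changes.

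Of 7 other cadherins tested, 1 was higher and 2 lower after Rtel1 deletion, 42.9% called beside 43.0% of all genes. Their median log2 fold change was -0.51, beside -0.03 for all genes. Cdh1, the epithelial E-cadherin, was barely expressed and fell from 1.36 ± 0.315 to 0.118 ± 0.0763 CPM (SD, n = 3; adjusted p = 3.5e-07 by edgeR). Cdh17 fell from 3.60 ± 0.471 to 2.37 ± 0.415 CPM (SD, n = 3; adjusted p = 0.0018 by edgeR, lost in 3 of 12 alternative settings). With TMPyP4 the same pair was lower, at 0.433 ± 0.146 CPM for Cdh1 and 1.59 ± 0.107 CPM for Cdh17. That was 28.6% of the 7 called, beside 30.0% of all genes. The gene called higher after Cre, the endothelial Cdh5, had at most 1 count in each Rtel1f/f +GFP library, and no fold is given.

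The atypical cadherins are large planar-polarity and protocadherin molecules. Of 16 tested, 1 was higher and 7 lower after Rtel1 deletion, 50% called beside 43.0% of all genes, with a median log2 fold change of -0.70 beside -0.03 for all genes, and 7 were lower with TMPyP4, 43.8% called beside 30.0%, with a median of -0.64. Fat4, which acts in planar polarity and Hippo signalling, fell from 50.6 ± 15.8 to 3.88 ± 0.504 CPM with Cre and to 7.18 ± 1.59 CPM with TMPyP4 (SD, n = 3; adjusted p = 1.6e-08 and 6.8e-07 by edgeR). Celsr2, a seven-pass cadherin, fell from 8.17 ± 0.883 to 2.39 ± 0.863 CPM with Cre and 2.32 ± 0.940 CPM with TMPyP4 (SD, n = 3), the second call being lost in 1 of 12 alternative settings.

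Of 5 desmosomal genes tested, 2 rose and the other 3 did not pass after either treatment, a share of 40.0% beside 43.0% of all genes called after Cre and 30.0% with TMPyP4. Pkp2 rose from 11.4 ± 2.17 to 33.5 ± 1.20 CPM with Cre and 27.1 ± 0.325 CPM with TMPyP4 (SD, n = 3), with log2 fold changes of 1.56 and 1.25 (SEs 0.0936 and 0.0933, adjusted p = 4.5e-10 and 2.7e-08 by edgeR). Pkp1, a second plakophilin, had log2 fold changes of 0.46 with Cre (SE 0.118, call lost in 3 of 12 alternative settings) and 0.87 with TMPyP4 (SE 0.119).

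Partners of nephrin and Kirrel proteins were split. Of 12 tested, 3 rose and 3 fell after Rtel1 deletion, 50% called beside 43.0% of all genes. With TMPyP4 3 rose and 1 fell, 33.3% beside 30.0%. Synpo, the actin-binding synaptopodin, fell from 52.7 ± 11.8 to 10.5 ± 1.26 CPM with Cre and 14.3 ± 0.774 CPM with TMPyP4 (SD, n = 3; adjusted p = 1.5e-09 and 6.2e-08 by edgeR). The adaptor Cd2ap rose from 108 ± 8.98 to 195 ± 22.0 and 154 ± 11.8 CPM (SD, n = 3; adjusted p = 7.6e-07 and 3.3e-04 by edgeR). Fyn, the kinase that phosphorylates nephrin, rose with TMPyP4 by 0.71 on the log2 scale (SE 0.0633). In RTEL1 CA cells the scaffold gene Cask fell by 0.53 on the log2 scale with Cre (SE 0.0740, adjusted p = 5.0e-04 by edgeR, lost in 2 of 12 alternative settings).

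Among 10 transcription factors known to regulate cadherin genes, 3 were called lower after Rtel1 deletion, while 1 rose and 2 fell with TMPyP4. The share called was 30% each time, beside 43.0% of all genes after deletion and 30.0% with TMPyP4. Tcf4, an E-protein, fell from 158 ± 7.64 to 84.9 ± 3.92 CPM with Cre and 127 ± 6.72 CPM with TMPyP4 (SD, n = 3). Its log2 fold changes were -0.90 and -0.32 in these comparisons, -0.35 in RTEL1 CA cells with Cre and -0.27 in Trf1f/f cells with Cre (SEs 0.0566, 0.0562, 0.0563 and 0.0561), all called by edgeR, with the call lost in 5 of 12 alternative settings in RTEL1 CA cells and 8 of 12 in Trf1f/f cells. Twist1, a mesenchymal factor, fell by 0.52 and 0.34 on the log2 scale in Rtel1f/f cells with Cre and TMPyP4 (SEs 0.0939 and 0.0937), the call with TMPyP4 being lost in 6 of 12 alternative settings.

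Of 11 tested genes for proteins that cut or trim cadherins, 1 rose and 3 fell after Rtel1 deletion, 36.4% called beside 43.0% of all genes. With TMPyP4 1 rose and 1 fell, 18.2% beside 30.0%. The metalloprotease gene Adam12 rose from 1.37 ± 0.821 to 7.48 ± 0.552 CPM with Cre and 3.72 ± 0.323 CPM with TMPyP4 (SD, n = 3; adjusted p = 1.2e-07 and 1.1e-04 by edgeR, the second lost in 1 of 12 alternative settings). Ncstn, a subunit of gamma-secretase, fell by 0.37 and 0.28 on the log2 scale (SEs 0.0514 and 0.0513).

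**Figure D4:**
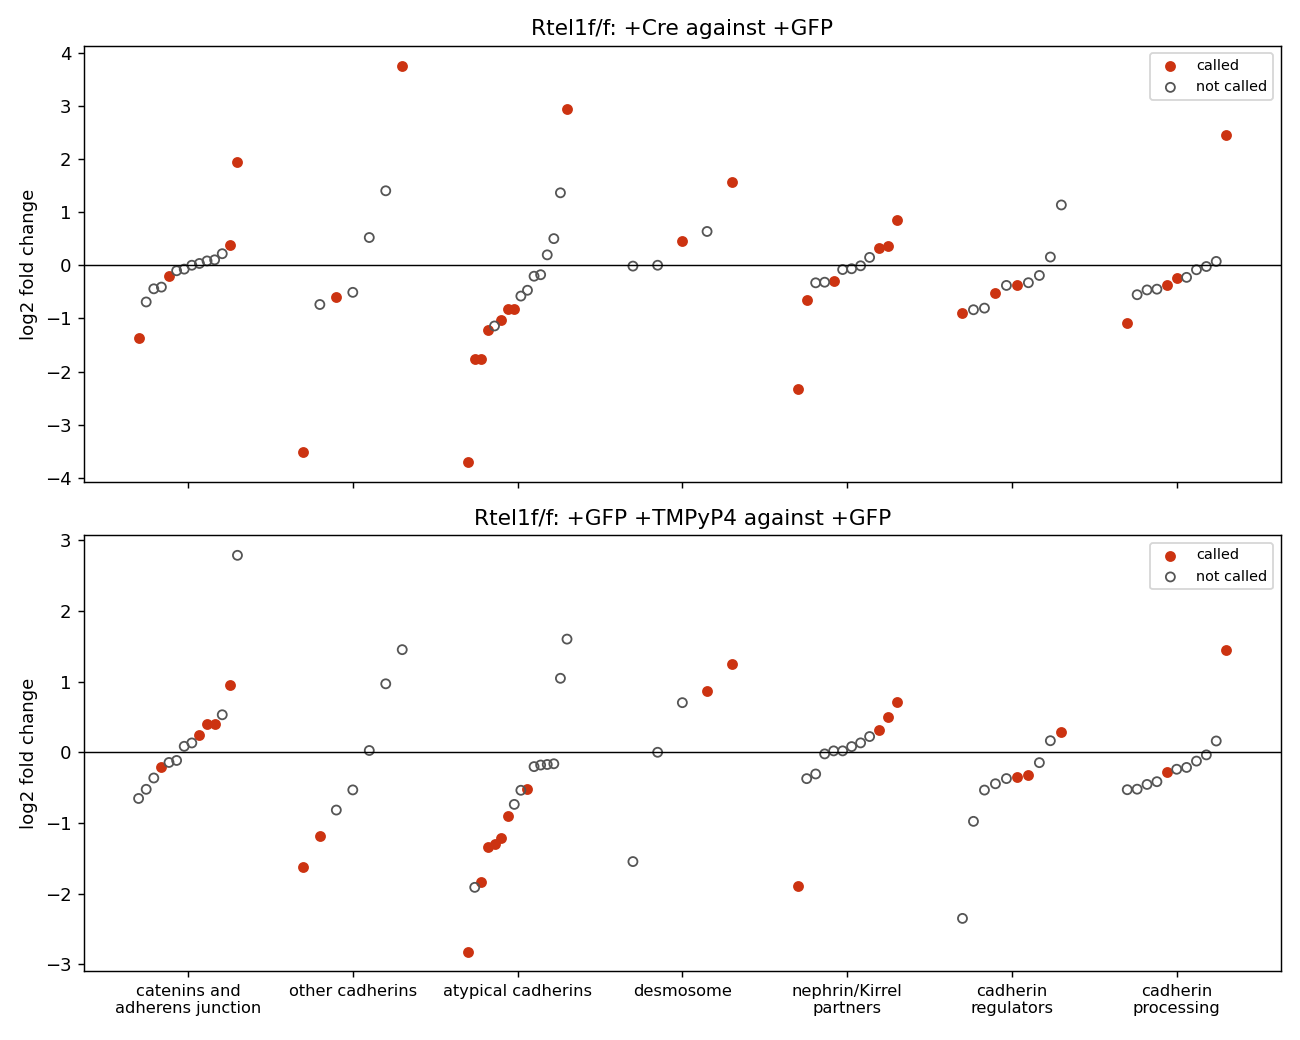
Log2 fold change (vertical axis) of each tested gene in 7 adhesion lists (horizontal axis) for +Cre against +GFP (upper panel) and +TMPyP4 against +GFP (lower panel) in Rtel1f/f cells, filled where called. Of the atypical cadherins, 7 of 16 were called lower in each panel, while the 2 called desmosomal genes were higher in both.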

How the data were processed

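The authors trimmed single-end, strand-specific reads with cutadapt 1.9.1 and quantified them with RSEM 1.3.0 and STAR 2.5.2a against mouse mm10 RefSeq genes. The deposited table holds expected counts and TPM for each of 21 libraries, and the deposited expected counts were whole numbers and used as counts. TPM, computed by the authors, were used only to compare genes with each other. Libraries were grouped by their titles. Genes were filtered with edgeR's filterByExpr and scaled by TMM, and 1 quasi-likelihood model over all 7 groups (edgeR 4.0.16, R 4.3.3, 14 residual degrees of freedom) gave 9 contrasts, adjusted by Benjamini-Hochberg over 13719 genes, with a threshold of 0.01. Log2 fold changes have standard errors from the F statistic. The procedure was tested on simulated data. CPM use TMM-scaled totals.

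The members and lists were chosen with earlier results of these data known. The genes of the lists named in the text are, by rule, those with the largest called changes in each direction. Of 99 list genes, 98 matched a row and 75 were tested. Dchs2 had no match, and nectins and afadin matched older symbols.

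Replicate numbers were taken to pair libraries where all 3 correlations of same-numbered deviations exceeded 0.1. That held for RTEL1 CA Cre against GFP (0.90, 0.89, 0.50) and Rtel1f/f +Cre against +TMPyP4 (0.81, 0.84, 0.49). It did not hold for Rtel1f/f +Cre against +GFP (-0.03, 0.05, 0.21), for +TMPyP4 against +GFP (-0.02, 0.06, 0.17) or for the other comparisons of 2 groups. No more than 2.66% of 13060 expressed genes had identical counts in any pair of libraries. Alternatives were DESeq2 1.42.0, other scaling, other filters, only the groups compared, another threshold, a replicate block and leaving out each library. Promoter windows and gene positions came from RefSeq (GRCm38.p6), by gene symbol, with a window for 4 of 10 members.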

Additional observations from a re-analysis of the deposited data

Results flagged for a closer look

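The change with Cre differed between cell lines for several members by edgeR's interaction term with Benjamini-Hochberg adjustment. Between Rtel1f/f and RTEL1 CA cells the log2 differences were 1.66 for Cdh2, -1.38 for Cdh3 and -0.85 for Cdh11. Cdh13 at -1.06 and Kirrel3 at -0.98 are descriptions without a test, because these genes were taken to be chosen on the RTEL1 CA values that enter the difference. Between Rtel1f/f and Trf1f/f cells they were 1.92 for Cdh2, -1.75 for Cdh3, -0.95 for Cdh11, -2.38 for Cdh13, -0.47 for Kirrel and -1.78 for Kirrel3. The GFP baselines of these lines also differed, Cdh2 being 1.72 higher in RTEL1 CA and 1.38 higher in Trf1f/f cells than in Rtel1f/f cells on the log2 scale.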

How the results depend on the processing

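Of 753 alternative fits of 57 member differences, 721 kept direction and side of the threshold, 18 lost the call, 8 gained one and 6 changed sign. No sign change concerned a called difference. Over the main fit and all alternative settings, the log2 difference of Kirrel between +Cre and +TMPyP4 ranged from -0.041 (without replicate 1 of +Cre) to 0.084. Over the same settings in Trf1f/f cells with Cre, Kirrel ranged from -0.051 to 0.047 (without replicate 1 of +GFP) and Cdh4 from -0.28 to 0.16 (without the same library). Between the Trf1f/f and Rtel1f/f lines 5 of the 6 members counted in both were called. Cdh4, Cdh15 and Cdh10, tested only through the Trf1f/f libraries, are not counted there, and requiring 10 counts in every library, which removed them, also left 5. In Trf1f/f cells with Cre, 1 member was called by DESeq2, among 639 of 13928 genes. With only the groups compared 1 was called, among 401 of 13236 genes (Cdh10 both times). At an adjusted p of at most 0.05 by edgeR 2 were called (Cdh15 and Cdh10), among 872 of 13719 genes. In RTEL1 CA cells with Cre, 0 were called by edgeR with only the groups compared. There 5 had an unadjusted p under 0.05, among 1256 of 12618 genes. At an adjusted p of at most 0.05 by edgeR 4 were called, among 416 of 13719 genes (Cdh3 and Cdh11 added to Cdh13 and Kirrel3, whose calls restate their choice). The cause of these shifts was not tested.

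Leaving out 1 library gave 6 to 6 called members for +Cre and for TMPyP4, and 3 to 4 between them. It gave 0 to 1 of the 4 members other than Cdh13 and Kirrel3 in RTEL1 CA with Cre, and 0 to 0 in Trf1f/f with Cre. The RTEL1 CA baseline had 5 to 6, and the difference of Rtel1f/f from RTEL1 CA cells 5 to 5. Both of these counts include Cdh13 and Kirrel3, whose calls there are not read as tests. The Trf1f/f baseline had 5 to 5 of the 6 members counted in both lines. For the difference of Rtel1f/f from Trf1f/f cells it was 5 to 6. The replicate block added calls for Cdh3 in RTEL1 CA cells with Cre (3 members called, Cdh13 and Kirrel3 included) and for Kirrel between the Rtel1f/f and RTEL1 CA changes (adjusted p = 0.0085 by edgeR, 6 called), and changed no other member's call. For the 136 named list-gene differences, 214 of 1778 alternatives lost the call and 0 changed sign. Cdh6 in every group, and Cdh4, Cdh10 and Cdh15 outside the Trf1f/f line, had too few counts for a comparison at this depth.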
